A study of Canis lupus familiaris with 8 samples.

Results

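The major histocompatibility complex (MHC) genes of the dog, called dog leukocyte antigen (DLA) genes, were examined together with TAP1 and PSMB8, which prepare peptides for class I molecules. The members were all probe sets whose platform annotation symbol was TAP1, PSMB8 or began with DLA. This gave 16 probe sets of 8 genes out of 23913 probe sets in the table and 6540 genes named in it, with 1 for TAP1, 3 for PSMB8, 3 for class I (DLA88 and DLA-79) and 9 for class II (DLA-DRA, DLA-DQA1, DLA-DQB1 and DLA-DOA). All 8 genes were found by gene identifier in the RefSeq table of the dog assembly UU_Cfam_GSD_1.0. In that table TAP2, PSMB8, TAP1 and PSMB9 follow one another directly, and DLA-DRA, HLA-DRB1, DLA-DQA1 and DLA-DQB1 do so too. DLA-79 lies on a different chromosome from the other members.

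Class I molecules present peptides from inside the cell to CD8 T cells and are made by nearly all nucleated cells. The immunoproteasome, in which PSMB8 takes the place of the standard subunit PSMB5, cuts the peptides, and the transporter formed by TAP1 and TAP2 carries them into the endoplasmic reticulum, where they bind class I chains paired with B2M. Class II molecules, made of an alpha and a beta chain, present material taken up from outside to CD4 T cells. They are made mainly by dendritic cells, macrophages and B cells, and interferon gamma raises both pathways in many other cells. DLA genes are among the most variable genes between dogs and breeds, and an array probe reads an allele that it mismatches less well; alleles were not analysed here.

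Total RNA came from the anterior leaflet of the mitral valve of 8 dogs, 1 Affymetrix array per dog. Controls 1 to 4 were beagle crosses. Affected dogs had degenerative mitral valve disease (DMVD), a thickening of the leaflets common in older small dogs. Affected 1 was a Lhasa apso, affected 3 a Dachshund, and affected 2 and 4 were each a Miniature poodle. Breed and disease therefore cannot be told apart, and age and disease stage were not given in the sources used here. The number of arrays limits the precision. Values are MAS5 signals, an array brightness with no absolute unit. Signals under 34.2 (5.10 on the log2 scale) were set to that floor before log2 was taken, and differences are log2 signal, affected minus control, with the standard error (SE) from limma over 4 dogs per group.

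The makeup of the leaflets was checked first. The interstitial cell and fibroblast markers that define this tissue, 7 of 11 listed genes, had summed signals from 95892 to 125894 in 3 controls and from 96782 to 127119 in affected dogs, but 43821 in control 2. Cardiac muscle markers, 13 of 18 listed, summed to 247047 in control 2 and from 51849 to 127115 in the other controls. In affected 2 they summed to 195974, and from 27539.9 to 101017 in the other affected dogs. The interstitial marker sum of affected 2, 119042, was not low. Values without control 2 are therefore given beside the member results.

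Most members had higher signals in affected leaflets, but no member passed the test. Of the 15 tested probe sets 12 were higher and 3 lower, with a median difference of 0.795, where 50.5% of all 14705 tested probe sets were higher and their median was 0.0065. No member passed limma at an adjusted p of 0.05, and 0% of all tested probe sets did so, higher or lower. Among members TAP1 had the smallest limma adjusted p, 0.523. At an unadjusted p under 0.05, 3 members were higher (TAP1, DLA-79 and the main DLA88 probe set) and 0 lower, where the background was 4.02% higher and 3.81% lower. Without control 2 the counts were 2 higher (TAP1 and DLA-79) and 1 lower (DLA88 1588902_at). The shares of all probe sets at that p were not counted without control 2. With that dog left out the median over members was 0.33. Then 12 members were still higher, but DLA-DRA 1583666_at had turned lower and DLA-DOA higher. Without any other single dog the median lay between 0.71 and 1.04.

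TAP1 had the smallest p of the members. Its signal was 791, 181, 552 and 516 in controls 1 to 4 and 1208, 857, 1114 and 1337 in affected dogs 1 to 4. Every affected dog lay above every control, with control 2 far below the other controls and the gap between control 1 and affected 2 only 0.11 on the log2 scale. TAP1 was 2.48 times as high in affected dogs, a difference of 1.31 ± 0.41 (SE, limma adjusted p = 0.523), and the two-sided exact permutation p of 0.0286 is the smallest that 4 against 4 dogs can give. Without control 2 the difference was 0.87 ± 0.26 (limma adjusted p = 0.406). Groups that did not overlap in the higher direction were seen for 2 members, TAP1 and DLA88, against 2.35% of all tested probe sets (2.31% in the lower direction, with 0 members). That separation of TAP1 was kept under quantile normalization and lost when arrays were centred on their median, where the difference was 1.23.

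PSMB8, the chymotrypsin-like subunit of the immunoproteasome, was measured by 3 probe sets. The brightest (1583632_s_at) read 695, 217, 509 and 592 in controls and 949, 477, 949 and 956 in affected dogs. Affected 1, 3 and 4 lay above all controls, while affected 2 lay below controls 1, 3 and 4. The difference was 0.795 ± 0.40 (limma adjusted p = 0.660), and 0.43 ± 0.30 without control 2. The other PSMB8 probe sets differed by 0.49 ± 0.33 (1585408_at) and 1.08 ± 0.65 (1586908_s_at), with control 2 lowest in each, and by 0.21 and 0.33 without that dog. All 3 PSMB8 probe sets therefore ran in the same direction and shrank without control 2. The subunit that PSMB8 replaces, PSMB5, differed by -0.068 ± 0.25 in its brightest probe set and by 0.37 ± 0.31 in the other.

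The class I genes did not move as one. DLA88, the main classical class I gene of the dog, had a very bright probe set (1582371_at) with signals of 16509.8, 12099, 14175 and 14986 in controls and 32508, 17034, 19763 and 18969 in affected dogs. All affected dogs were above all controls, but the gap between control 1 and affected 2 was only 0.045 on the log2 scale and affected 1 stood well above the rest. DLA88 was 1.49 times as high, at 0.57 ± 0.25 (limma adjusted p = 0.628, exact permutation p = 0.0286), and 0.37 without affected 1. Its groups overlapped under quantile normalization, where the difference was 0.38, and with median centring, where it was 0.50.

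The other DLA88 probe set (1588902_at) pointed the opposite way. It read 1836, 386, 1377 and 1362 in controls and 449.5, 470.2, 140.0 and 1877 in affected dogs. Affected 1, 2 and 3 lay below controls 1, 3 and 4, while affected 4 lay at the top of all dogs. The difference was -1.15 ± 0.73 (limma adjusted p = 0.707) -1.64 ± 0.68 without control 2 and -0.55 without affected 3. DLA88 thus had no single direction on this array, and the 2 poodles, affected 2 and affected 4, lay far apart on this probe set.

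DLA-79, a divergent class I gene outside the MHC, read 1375, 865, 373 and 295 in controls and 2518, 684, 1712 and 2084 in affected dogs. Affected 1, 3 and 4 were above all controls and affected 2 lay between control 2 and control 3. The difference was 1.39 ± 0.54, or 2.62 times as high (limma adjusted p = 0.604). Here control 2 was not low, and without it the difference was 1.56 ± 0.57. DLA-79 and DLA-DOA were the only members in which control 2 was not the lowest control. B2M, the partner chain of class I molecules, had 3 tested probe sets that differed by 0.33 ± 0.20, 0.27 ± 0.33 and 0.34 ± 0.36. In the first of these all affected dogs (14582 to 21151) were above all controls (12479 to 14028), as in 2.35% of all tested probe sets.

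**Figure D1:**
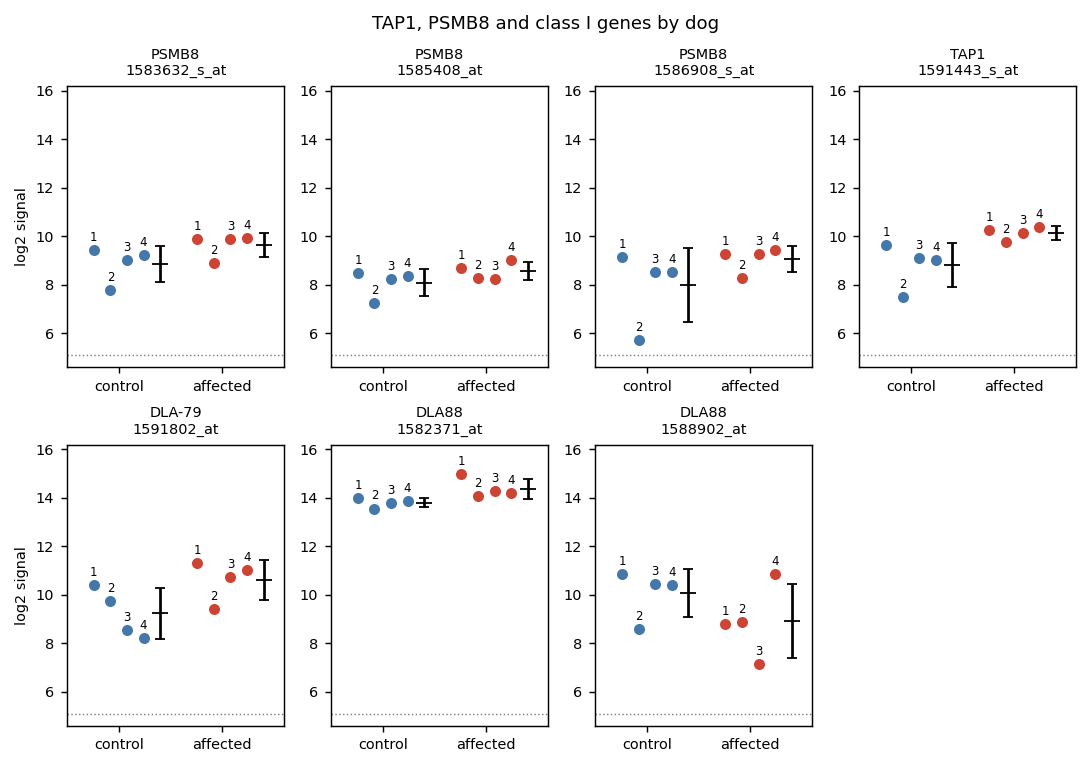
Log2 signal of each TAP1, PSMB8 and class I probe set in controls 1 to 4 (blue) and affected dogs 1 to 4 (red). Bars beside the points are mean ± SD (n = 4) and the dotted line is the floor of 5.10. TAP1 and DLA88 1582371_at show no overlap, and DLA88 1588902_at runs the other way, with affected 4 apart from the other affected dogs.

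The 3 class II genes of the DR and DQ molecules had 6 probe sets with higher means in affected dogs, and in each the SD was greater among controls and the difference shrank or turned without control 2. DLA-DOA and the second DLA-DQB1 probe set did not share this pattern. DLA-DRA, the shared alpha chain of the DR molecule, had its brightest probe set (1583667_s_at) at 11519, 268, 4583 and 7248 in controls and 13324, 9206, 13298 and 11605 in affected dogs. Control 2 was lower than every other dog, 17.1-fold below the next control, and affected 1, 3 and 4 were above all controls. Controls averaged 11.64 ± 2.44 on the log2 scale and affected dogs 13.52 ± 0.25 (SD, n = 4 each). The difference was 1.88 ± 0.95 (limma adjusted p = 0.666, exact permutation p = 0.0571), and 0.69 ± 0.31 without control 2 (limma adjusted p = 0.584).

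The other DLA-DRA probe sets gave weaker separation. One (1583666_at) read 7453, 7.47, 1136 and 1238 in controls, with control 2 under the floor, and 2684, 1567, 775 and 5743 in affected dogs. It differed by 1.43 ± 1.34 and by -0.073 ± 0.75 without control 2, so its direction turned. It cites the same source sequence as the brightest one and so is not independent of it. The third (1586008_at) read 519.9, 124, 329 and 447 in controls and 387, 461, 492 and 652 in affected dogs, a difference of 0.65 ± 0.43 that was 0.20 ± 0.28 without control 2.

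DLA-DQA1, the alpha chain of the DQ molecule, read 3026, 54.3, 718 and 842 in controls and 1788, 1441, 2744 and 1987 in affected dogs with its brighter probe set (1600893_at). Control 1 was the highest of all dogs and control 2 the lowest, with all affected dogs above the other 3 controls. The difference was 1.79 ± 0.96 (limma adjusted p = 0.672) and 0.66 ± 0.46 without control 2. The dimmer DLA-DQA1 probe set (1582449_at) read 1344, 169, 275 and 436 in controls and 336, 388, 1057 and 642 in affected dogs. These overlapped widely, at 0.43 ± 0.60, at 0.0042 ± 0.55 without control 2 and at 1.00 without control 1.

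DLA-DQB1, the beta chain of DQ, read 6550.3, 173, 1158 and 2317 in controls and 3419, 2341, 5306 and 4608 in affected dogs (1582409_at). The pattern was that of DLA-DQA1, with control 1 on top, control 2 lowest and the affected dogs between. The difference was 1.50 ± 0.89 (limma adjusted p = 0.698), and 0.52 ± 0.52 without control 2. A second DLA-DQB1 probe set (1599528_at) was lower in affected dogs, at -0.66 ± 0.996, with signals of 775, 13.5, 145 and 365 in controls and 17.4, 105, 116 and 534 in affected dogs. Control 2 and affected 1 were under the floor, and the difference was -1.50 without control 2 and 0.0038 without control 1. This probe set cites the same source sequence as one annotated HLA-DRB1, so its gene name is uncertain.

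DLA-DOA, which belongs to a class II molecule that restrains peptide loading and is known mainly from B cells, had 1 probe set (1587605_at) at or under the floor in all dogs, the only member that was not tested. Its other probe set (1591666_at) read between 158 and 243 in controls and between 176 and 235 in affected dogs. The groups overlapped fully and the difference was -0.00087 ± 0.26, with a 95% interval from -0.57 to 0.57, and 0.046 without control 2.

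Among the 8 tested class II probe sets 6 were higher and 2 lower, with a median of 1.04, and 0 had an unadjusted p under 0.05. Without control 2 the median was 0.13, and without control 1 it was 1.64. With array weights, which give less weight to arrays that deviate, it was 0.39. The mean log2 signal over these probe sets was 6.70 in control 2, from 9.19 to 10.90 in the other controls, and from 9.68 to 10.54 in affected dogs. The corresponding mean for TAP1 and PSMB8 was 7.06 in control 2, from 8.71 to 9.17 in the other controls and from 8.80 to 9.67 in affected dogs. The 4 probe sets of TAP1 and PSMB8 had a median difference of 0.94, and 0.38 without control 2.

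**Figure D2:**
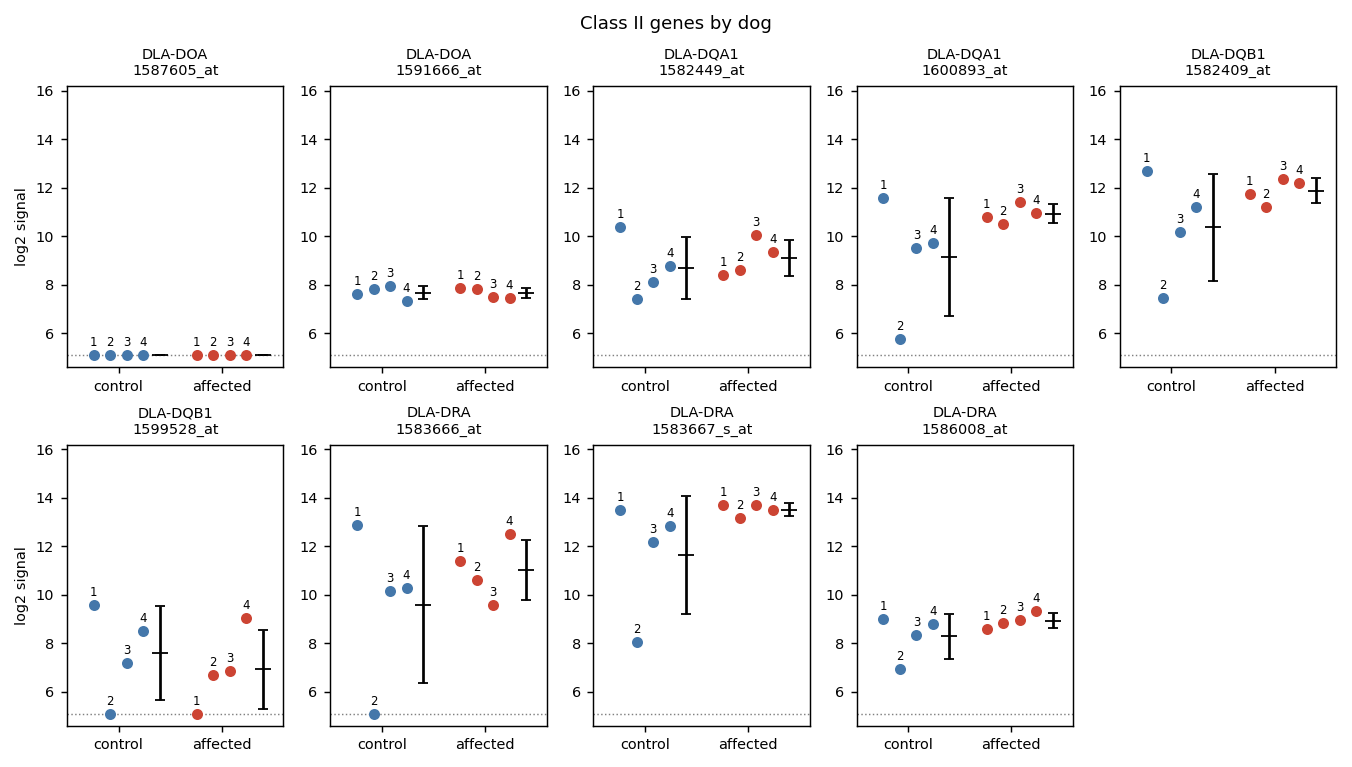
Log2 signal of each class II probe set in controls 1 to 4 (blue) and affected dogs 1 to 4 (red), with mean ± SD (n = 4) and the floor of 5.10 as a dotted line. Control 2 is the lowest dog for both DLA-DQA1 probe sets and all 3 DLA-DRA probe sets, and control 1 lies among or above the affected dogs in those probe sets.

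HLA-DRB1, the platform's name for the dog DR beta chain, was no member by the rule but sits between DLA-DRA and DLA-DQA1. Of its 5 probe sets 2 were bright enough to be tested. One (1582362_at) read 12434, 42.7, 2177 and 4639 in controls and 4719, 3622, 15367 and 7772 in affected dogs. It repeated the low control 2 and high control 1 of the DQ genes, with a difference of 2.14 ± 1.43, and 0.42 without control 2. The other differed by 1.61 ± 1.05, and by 0.39 without control 2.

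**Figure D3:**
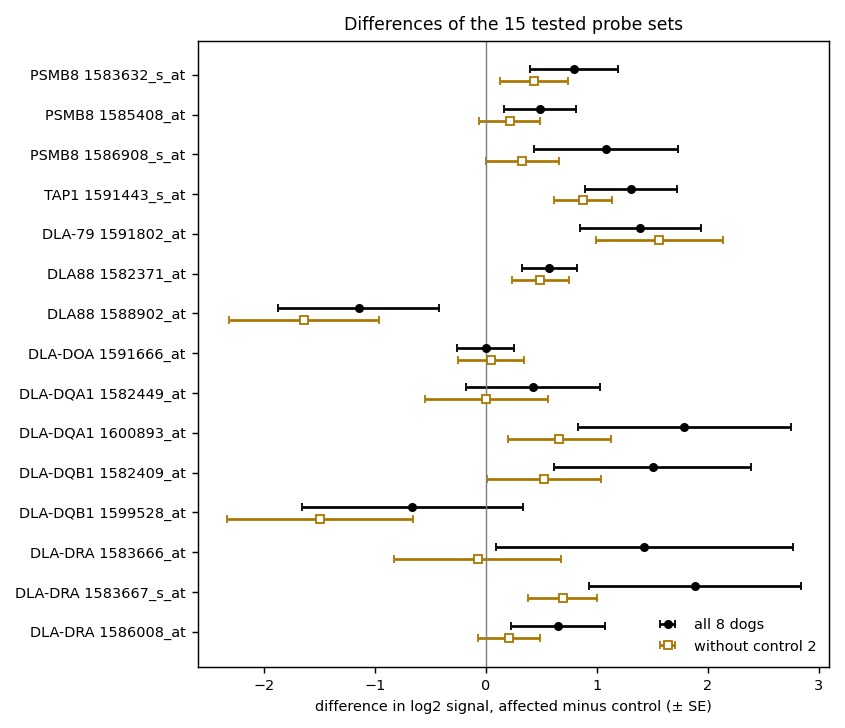
Difference in log2 signal, affected minus control, ± SE for the 15 tested member probe sets, with all 8 dogs (filled) and without control 2 (open). Without control 2, TAP1, DLA-79 and DLA88 1582371_at are at 0.87, 1.56 and 0.49. The 6 class II probe sets with positive differences move towards or past 0, and DLA-DQB1 1599528_at moves from -0.66 to -1.50.

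The same dogs were low or high across members. Control 2 was the lowest control in 13 of 15 members (86.7%) against 36.1% of all tested probe sets. Control 1 was the highest control in 14 of 15 (93.3%) against 19.6%. Among affected dogs affected 2, which had the highest cardiac muscle sum of its group, was lowest in 8 of 15 (53.3%) against 19.5%. Affected 4 was highest in 8 of 15 (53.3%) against 19.6%. Both were poodles. The members share arrays, and several share a gene, so these counts are not independent.

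Macrophage and monocyte markers were also higher in affected leaflets. Of 16 listed genes 14 were tested, and in all 14 the affected mean was above the control mean, with a median of 1.97 (1.26 without control 2) and 0 past the test over all probe sets. Their summed signal was 1822 in control 2, 7796, 10942 and 18961 in controls 3, 4 and 1, and from 20762 to 44993 in affected dogs. Control 2 was thus lowest and control 1 highest of the controls, as in the class II genes, but here every affected dog exceeded control 1. The order of the affected dogs differed too. The class II mean log2 signal was 9.70 in affected 1 and highest in affected 4, at 10.54. The macrophage marker mean was highest in affected 1, at 10.92, and 10.21 in affected 4. MARCO, a scavenger receptor at the floor in all 4 controls, and FCER1G, an Fc receptor chain at the floor in 3, passed the filter through the affected dogs and so had to be higher. Without these 2 genes, an alternative chosen after seeing the data, the median was 1.94 over 12 genes (1.16 without control 2). CD14, a lipopolysaccharide receptor, differed by 2.09 ± 0.45. FCER1G and FCGR1A, an Fc receptor at the floor in control 2, differed by at least 2.91 and at least 3.53, since their size depends on the floor. In whole tissue, more cells of a type and more RNA per cell cannot be told apart, and the part of macrophages in the member differences was not tested.

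Lymphocyte markers moved less. T and NK cell markers, 5 of 16 listed, had 3 higher and 2 lower, a median of 0.27 (0.089 without control 2) and summed signals from 1003 to 1706 in controls and from 1184 to 1699 in affected dogs, with CD3E at 0.54 ± 0.33, LCK at 0.34 ± 0.38 (-0.044 without control 2) and CD4 at 0.27 ± 0.30. The other members were NKG7 at -0.16 and CD3D at -0.022. CD8A was at the floor in 6 of 8 dogs. B and plasma cell markers were thinly covered, with 2 of 10 tested (CD38 at 0.91 ± 0.55 and JCHAIN at 0.28 ± 0.44) and summed signals from 1457 to 2036 in controls and from 1430.5 to 4218 in affected dogs. PAX5, a defining B cell factor, was at the floor in all 8 dogs. Of 10 dendritic cell markers 0 were named on the array. The part of these cells in the member differences was not tested.

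**Figure D4:**
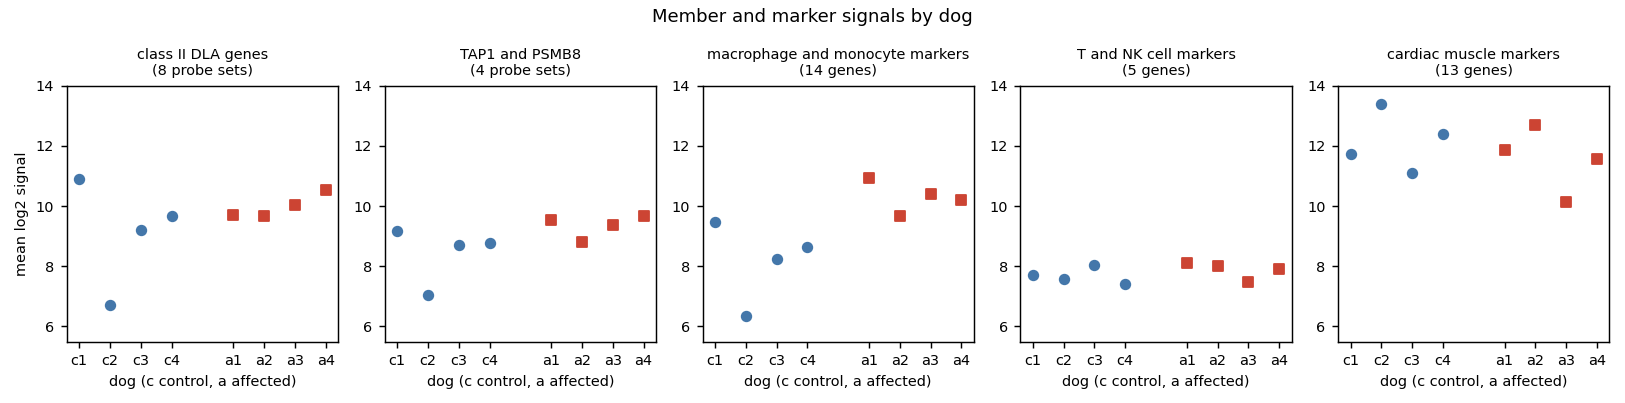
Mean log2 signal per dog (c1 to c4 controls, a1 to a4 affected) over the tested class II probe sets, the TAP1 and PSMB8 probe sets, and the tested markers of macrophages and monocytes, of T and NK cells, and of cardiac muscle. Control 2 is lowest in the first 3 panels and highest in the cardiac panel, at 13.39.

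The rest of the class I pathway showed no common direction. Of 19 listed genes 12 were tested, 7 higher and 5 lower, with a median of 0.26 (-0.0099 without control 2), 0 past the test in either direction, where the median was -0.0056 over the brightest probe set of all 5438 named genes. SEC61A1, a channel subunit of the endoplasmic reticulum, differed by 1.24 ± 0.55 (0.67 without control 2), the immunoproteasome subunit PSMB9 by 0.70 ± 0.39 (0.34) and B2M by 0.33 ± 0.20. TAP2, the partner of TAP1, read 1206, 248, 654 and 1261 in controls and 775, 522, 1429 and 1151 in affected dogs. Its groups overlapped, at 0.36 ± 0.52, and at -0.14 without control 2. The proteasome activator subunits PSME1 and PSME2 differed by -0.19 ± 0.23 and 0.35 ± 0.24. Standard proteasome core subunits, 12 of 15 listed, had a median of -0.12 with 3 higher, 9 lower and 0 past the test, and without control 2 a median of -0.027 with 6 higher. Their smallest p values belonged to PSMA6 at -0.64 ± 0.40, PSMA3 at -0.26 ± 0.25 and PSMA2 at -0.21 ± 0.29.

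Partners of the class II molecules were mostly higher. Of 20 listed genes 10 were tested, 9 higher and 1 lower, with a median of 0.89, or 0.43 without control 2, and 0 past the test. CTSB, a lysosomal protease, differed by 0.80 ± 0.29, CD86, a costimulatory ligand of T cells, by 1.90 ± 0.74 and IFI30, a lysosomal reductase that unfolds antigens, by 0.99 ± 0.41. Without control 2 these were 0.62, 1.05 and 0.56. In each of these 3, named for their small p, all affected dogs were above all controls. Over the list this held for 4 of 10 genes, against 147 of all 5438 named genes. The reverse held for 0 of 10, against 129. CTSS, which trims the invariant chain, was at 1.34 ± 0.75, and 0.46 without control 2. Of the transcription factors of the class II promoter complex, RFX5 differed by 0.39 ± 0.27 and had all affected dogs above all controls, while the groups overlapped for RFXAP at -0.26 ± 0.26 and RFXANK at 0.11 ± 0.23.

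Interferon signalling and induced genes, the usual inducers and companions of these members, gave 19 tested of 55 listed, with 17 higher, 2 lower, a median of 0.35 (0.23 without control 2) and 0 past the test. The chemokine CCL5 differed by 1.13 ± 0.40, the antiviral protein MX2 by 0.94 ± 0.42 and the transcription factor IRF2 by 0.59 ± 0.29. CXCL10, a chemokine induced by interferon gamma, was at 0.92 ± 0.75. It read 425, 153, 178 and 138 in controls and 363, 130, 211 and 2043 in affected dogs. Only affected 4 lay above all controls, and affected 2 lay below them. ISG15, MX1 and IFIT3, genes strongly induced by type I interferon, were at 0.15 ± 0.59, 0.13 ± 0.60 and -0.024 ± 0.79. Without control 2 these 3 were at -0.14, -0.40 and -0.52, and 13 of the 19 genes were higher. IFIT3 was at the floor in controls 2 and 4. MX2, XAF1, IRF9 and OAS2, also induced by interferon, were at 0.94 ± 0.42, 0.49 ± 0.36, 0.29 ± 0.27 and 0.21 ± 0.32. Without control 2 they were at 0.64, 0.29, 0.059 and -0.052. The NF-kappaB list was reduced to 2 of 17 genes, NFKBIA at 0.84 ± 0.43 and TNFRSF1A at 0.34 ± 0.48 (0.19 without control 2).

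The genes whose log2 signal tracked a member most closely over the 8 dogs were sought for each member gene. Of 5430 other named genes, the likeness to TAP1 was greatest for PLEK (Pearson r = 0.986), SELPLG (0.980), RNF144B (0.979), TIMP1 (0.979) and ICAM1 (0.975). PLEK and SELPLG are leukocyte genes, and ICAM1 is an adhesion molecule for leukocytes. For PSMB8 they were CLIC1 (0.988), SRGN (0.984), LOC476816 (0.984), SLC9A3R1 (0.978) and IL13RA1 (0.975). For DLA-DRA they were CCL23 (0.985), DKK2 (0.982), MILR1 (0.981), CTSS (0.978) and BPI (0.977). DLA-DQA1 was followed by HLA-DRB1 (0.983), CTSS (0.978), SLC20A1 (0.975), CCL23 (0.971) and SLC46A2 (0.969), and DLA-DQB1 by HLA-DRB1 (0.983), CTSS (0.981), MILR1 (0.976), SLC46A2 (0.970) and HPF1 (0.968). Each of these 3 class II lists held CTSS. Control 2 lay far below all other dogs in the 3 class II probe sets used, so these correlations lean on 1 dog. Control 2 was also the lowest dog in the TAP1 and PSMB8 probe sets used, at 7.50 and 7.76, where the next dogs were at 9.01 and 8.90. No correlation was computed without control 2, and the 3 class II lists are not independent.

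The remaining members shared no companion with these lists. DLA88 was closest to SMPD1 (0.983), PECAM1 (0.975), CTSB (0.972), CSK (0.962) and SLC37A4 (0.958), where PECAM1 is an endothelial adhesion molecule. DLA-79 was closest to M6PR (0.965), JPT1 (0.958), TXNL4A (0.955), DAGLB (0.948) and GAP43 (0.906). DLA-DOA was closest to ELOVL5 (0.948), TP53I11 (0.939), TTN (0.939), BAZ1B (0.931) and UPF3B (0.930), where TTN is a sarcomere protein. These values describe 8 arrays that share their tissue makeup, were picked as the highest of many, and are given with no p.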

How the data were processed

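The authors' deposited values are probe set signal intensities, not logged, and MAS5 made them, per the submitters' processing notes. Its version and detection calls are not stated in the sources used here. Every array had a trimmed mean of 500.1, so the authors had already scaled them. Signals were rescaled to that mean (factors 0.999986 to 1.00001), floored at the 20th percentile (34.2) and log2 transformed. Testing needed 4 or more of 8 arrays above their own 40th percentile, which left 14705 of 23913 probe sets, with 77 array controls out. The groups were compared with limma 3.58.1 (R 4.3.3) using lmFit and a trended eBayes, two-sided, Benjamini-Hochberg adjusted over all tested probe sets at 0.05. Single probe sets were also compared by exact permutation over 70 splits. The fit was tested on simulated data.

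The platform annotation gave 10549 rows 1 symbol, 138 several and 13226 none. The members and gene lists were chosen with earlier results of these data known. All member probe sets are named. From each list the 3 genes with the smallest p, on the brightest tested probe set per gene, are named, and for each member gene the 5 genes with the highest Pearson correlation. Beyond that rule TAP2, PSMB5, PSME1, PSME2, CTSS, HLA-DRB1, the RFX genes, CXCL10, ISG15, MX1 and IFIT3, MARCO, NKG7, CD3D, TEK and VWF are named after their values were seen, for their roles. So are XAF1, IRF9, OAS2 and TIE1. The labels call the samples biological replicates. Alternatives were other normalizations, filters, floors and priors, weighting of arrays, a replicate block, and leaving out each dog.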

Additional observations from a re-analysis of the deposited data

Results flagged for a closer look

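In 2 of 30 groups of 4 dogs, over the 15 tested member probe sets, 1 dog stood apart from the other 3 by Dixon's criterion, which chance alone meets in about 1 of 20 groups. Both were PSMB8 in affected 2, a Miniature poodle that also had the highest cardiac muscle marker sum of the affected dogs. With 1583632_s_at its log2 signal was 8.90 where the other affected dogs lay between 9.89 and 9.90, and with 1586908_s_at it was 8.28 where they lay between 9.25 and 9.41. Both probe sets measure 1 gene on 1 array and are not independent.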

How the results depend on the processing

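No member passed the threshold under any of the 20 alternatives, and the smallest adjusted p of a member was 0.191 (limma, replicate block). Over all probe sets 4 passed with the replicate block and 1 without control 1, against 0 otherwise, so the left-out range was 0 to 1. The deviations of same-numbered dogs correlated at -0.12, 0.41, 0.022 and -0.013 over probe sets. Differently numbered dogs ranged from -0.46 (control 1 with affected 2) to 0.46 (control 1 with affected 3). These values do not settle whether the numbers pair the dogs. Members without overlap numbered 2, and 1 under quantile normalization, 0 with median centring, 5 without control 1 and 6 without affected 2 (left-out range 2 to 6). In the main setting 2.35% of all tested probe sets separated higher and 2.31% lower. Those shares were not counted under the alternatives, and groups with 1 dog fewer separate more easily, so the rises have no background to be read against. The median over members ranged from 0.33 to 1.04 with single dogs left out, and that over class II from 0.13 (without control 2) to 1.64 (without control 1). With single dogs left out DLA-DRA 1583666_at ranged from -0.073 (without control 2) to 2.52, and DLA-DQB1 1599528_at from -1.50 (without control 2) to 0.0038 (without control 1). DLA-DOA 1591666_at, at -0.00087, turned to 0.13 with array weights and lay between -0.12 and 0.088 with single dogs left out. The other 12 tested members kept their direction in all alternatives in which they were tested. The cause of these changes was not tested. Values near the floor are imprecise.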

Other observations

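Endothelial markers were higher in affected leaflets in all 6 tested of 10 listed genes, with a median of 1.00 (0.92 without control 2), 0 past limma's test, and summed signals from 8236 to 11939 in controls and from 15904 to 28270.5 in affected dogs. NOS3 differed by 1.07 ± 0.29, ENG by 1.27 ± 0.35 and PECAM1 by 1.01 ± 0.34. Control 2 had the lowest summed signal, 8236, next to 8709 in control 4. It was the lowest dog for ENG, PECAM1 and TEK, but the highest control for NOS3, TIE1 and VWF, at 757, 936 and 1946. In mean log2 signal over the 6 genes control 4 was lowest, at 9.91, and control 2 was at 10.05.

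Of the interstitial cell and fibroblast markers 6 of 7 were higher, with a median of 0.36 that was -0.072 without control 2; VIM differed by 0.53 ± 0.27, POSTN by 1.81 ± 0.94 (0.82 without control 2) and COL1A2 by 0.36 ± 0.38. Cardiac muscle markers had a median of -0.61 (-0.12 without control 2), with CACNA1C at -0.61 ± 0.30, MYOZ2 at -1.16 ± 0.64 (-0.64) and ANKRD1 at -1.05 ± 0.66 (-0.50). Smooth muscle markers, 4 of 6 listed, had a median of 0.50 (0.87 without control 2), with TAGLN at 0.48 ± 0.30, MYH11 at 1.02 ± 0.80 (1.70) and ACTA2 at 0.53 ± 0.48 (0.80). Adipocyte markers, 3 of 8 listed, were ADIPOQ at -2.82 ± 1.36 (-4.45 without control 2), LEP at -0.48 ± 0.33 and PPARG at 0.22 ± 0.39. Neutrophil and mast cell markers, 2 of 11 listed, were MS4A2 at 0.74 ± 0.37 and CXCR2 at 0.35 ± 0.38, and KIT was at the floor in 7 of 8 dogs. None of these genes passed the test.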
